A study of Homo sapiens with 6 samples.

Results

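Genes of the machinery that takes new proteins into the endoplasmic reticulum (ER), trims and glycosylates them there and returns escaped residents were examined in CLIC1 knockdown and control cells. The group holds 35 genes of 60831 in the deposited table, found by gene symbol, each on a single line of the table. They cover 6 proteins of the signal recognition particle (SRP), 2 subunits of its receptor, 5 genes of the SEC61 channel and its SEC62/SEC63 partners, TRAM1, 4 subunits of the translocon-associated protein complex (TRAP), 5 of signal peptidase, 9 of oligosaccharyltransferase (OST) and 3 KDEL receptors. The cells were PATU8988, a human pancreatic cancer line. In 3 libraries CLIC1, a chloride intracellular channel protein, was knocked down from a lentiviral vector, and 3 control libraries were labelled shNC. The labels of all 6 libraries give the same treatment text, with a lentiviral vector carrying green fluorescent protein and puromycin resistance and 2 weeks of selection in 5 µg/mL puromycin, so these are stable, selected lines. The vector of the control cells is not described apart from it. The labels do not say whether the 3 libraries of a group came from separate infections, so p-values here reflect only library-to-library spread, which may be technical.

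Most secreted and membrane proteins are made on ribosomes that SRP carries to the ER membrane. SRP binds the signal peptide as it leaves the ribosome and meets its receptor at the membrane, the chain passes through the SEC61 channel with the help of TRAM1 and TRAP, signal peptidase cuts off the signal peptide and OST transfers a preassembled glycan to asparagine residues. Soluble ER residents that leak to the Golgi carry a C-terminal retrieval signal and are brought back by KDEL receptors. Exocrine pancreas and the mucus-secreting epithelium of pancreatic ducts rely heavily on this route.

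Values are TPM, a transcript level scaled by length and to a fixed total per library, and library depth is unknown. The targeted gene was lower in every knockdown library: CLIC1 had 219, 210 and 204 TPM in knockdown against 313, 311 and 297 TPM in control, 68.8% of control. Epithelial markers matched the label, with all 5 (KRT8, KRT18, KRT19, EPCAM, CDH1) above 1 TPM and a summed level of 11205 to 11681 TPM in knockdown and 9433 to 9700 TPM in control. Of these, KRT8, KRT18, KRT19 and EPCAM rose, KRT8 and KRT18 make up most of the sum, and CDH1 was at 123 ± 10.9 TPM in knockdown and 136 ± 6.83 TPM in control, with overlap. Leukocyte markers summed to 6.93 to 7.13 TPM in knockdown and 4.02 to 5.80 TPM in control, with PTPRC, CD3E and MS4A1 at 0. Acinar markers summed to 4.04 to 4.99 TPM in knockdown and 2.84 to 3.57 TPM in control, with CPA1 and CELA3A at 0. Fibroblast markers reached at most 3.37 TPM in knockdown and 4.45 TPM in control, with COL1A2, DCN and LUM at 0, and endothelial and endocrine markers were under 1 TPM in sum in every library. The part of any of these markers in the results was not tested.

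The sequences that bear on the results fall into 2 sets. The first is a promoter motif, TGACGTGG, known as the unfolded protein response element and read by the ER stress factors XBP1 and ATF6. It was searched on both strands in RefSeq promoter windows (GRCh38.p14, from 250 bases before to 50 after each annotated start), which matched 28 of the 35 genes, all but KDELR2, RPN1, SRPRA, TUSC3, SPCS1, STT3B and TRAM1. The motif lay in a window of 5 of these 28 genes (17.9%), against 0.927% of all 27305 genes with a window and 1.19% of the 9777 genes with a window that were also tested for expression. In all 5 it ran in reverse, so the gene strand reads CCACGTCA, shown in capitals:
SSR3: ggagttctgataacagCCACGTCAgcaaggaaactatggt
SEC62: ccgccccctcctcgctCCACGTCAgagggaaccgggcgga
SRP19: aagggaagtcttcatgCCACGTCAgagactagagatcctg
KDELR3: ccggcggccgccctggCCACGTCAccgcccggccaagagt
SSR4: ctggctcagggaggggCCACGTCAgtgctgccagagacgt

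These windows lie at chr3:156554143-156554182 on the minus strand for SSR3 and on the plus strand at chr3:169966774-169966813 for SEC62, chr5:112861159-112861198 for SRP19, chr22:38468034-38468073 for KDELR3 and chrX:153794523-153794562 for SSR4. The first base of the match stood 41, 17, 112, 46 and 129 bases upstream of the annotated start in that order, and for SSR3 and SSR4 that start is not the sole annotated one. Windows at their other annotated starts hold no match. The SSR3 match lies inside the gene (156540140 to 156555184), and the windows without it lie nearer the 5′ end of the gene. Read in reverse the motif begins with CCACG, and CCACG alone, which it overlaps, was in 71.4% of the member genes, 42.1% of all genes and 57.5% of tested ones. The longer ER stress response elements known as ERSE and ERSE-II, both of which hold CCACG, were in 0 of 28 member genes and in 0.0916% and 0.0696% of all genes. A match is a description of these letters and no sign of binding.

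The second set is a 7-base word in the 3′ UTR, GTGCTGA, which an earlier scan of these same libraries had picked out because it was frequent among genes lower in knockdown, so its presence here supports nothing by itself. In the longest GENCODE 29 3′ UTR of each gene it occurred in 3 of 35 members, against 13.3% of 11635 tested genes searched. The members were SEC61A1, SRP72 and KDELR2, which has it 2 times, and the first site of each is shown with the word in capitals:
SEC61A1: agttctgtttGTGCTGAcaggtggcct
SRP72: ttatctgtgtGTGCTGAtttgatcttt
KDELR2: tgtcccaaggGTGCTGAagaatccagt

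The sites start 1154, 271 and 718 bases after the stop codon in SEC61A1, SRP72 and KDELR2. SEC61A1 and SRP72 had the lowest log2 fold changes of the tested members, and KDELR2 had the highest among those past the threshold, as given below with each gene.

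A few genes of glycosylation and retrieval stood higher in knockdown, at 115% to 123% of their control level. SRP had 0 genes called, as had the SRP receptor, SEC61 with SEC62/SEC63, TRAM1, TRAP and signal peptidase. With 0.962% of all tested genes called higher, 0 calls in so few genes sets none of these complexes apart. TUSC3 was under the level filter of a mean of 1 TPM, and of the 34 members tested 3 rose: the OST subunits DDOST and OSTC and the retrieval receptor KDELR2. The test was limma on log2(TPM + 1) over all 14135 genes that passed the filter, two-sided, with Benjamini-Hochberg adjustment and a threshold of 0.05. The 3 members are 8.82% of those tested, against 0.962% of all tested genes called higher and 1.74% called in either direction. By limma 0 members fell, against 0.778% of all genes, and at an unadjusted p under 0.05 only SEC61A1 was lower, against 7.76% of all genes, while 12 members (35.3%) were higher, against 7.85%. Knockdown libraries lay wholly above control libraries in 11 members (32.4%) and wholly below in SEC61A1 alone, against 11.1% and 11.2% of all genes. Of the 34 log2 fold changes 23 were positive (67.6%, against 48.7% of all tested genes), and their median was 0.07, against −0.00 for all tested genes. The members were chosen with earlier results of these libraries known, which already had ER genes higher, so these shares are descriptions. In bulk RNA a lower share of cells with a transcript and less of it per cell cannot be told apart. None of the 3 calls was kept without knockdown replicate 1 or 2 or without control replicate 1, 2 or 3, and DDOST and KDELR2 were kept without knockdown replicate 3. Calls over all genes dropped in the same fits except the one without knockdown replicate 3: 136 genes were called higher with all libraries, 64 without knockdown replicate 1, 13 to 17 without knockdown replicate 2 or any 1 control library, and 154 without knockdown replicate 3. The log2 fold changes stayed between 0.20 and 0.22 for DDOST, 0.20 and 0.24 for OSTC and 0.28 and 0.34 for KDELR2.

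**Figure D1:**
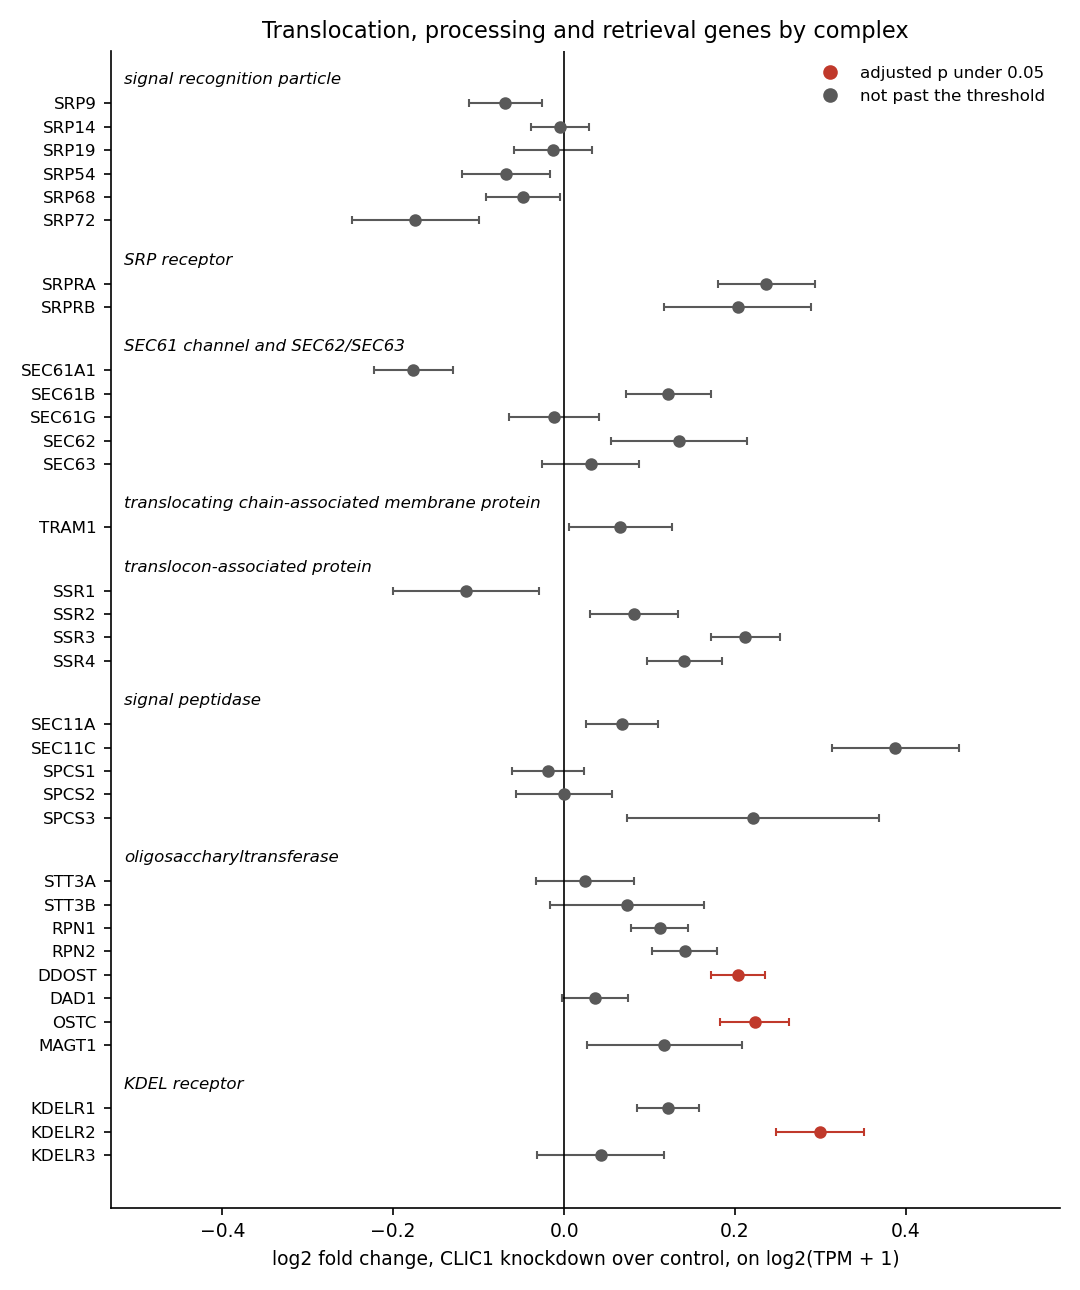
Log2 fold change of CLIC1 knockdown over control (horizontal axis, on log2(TPM + 1)) for the 34 tested genes, grouped by complex, with bars of 1 standard error. DDOST, OSTC and KDELR2, in red, passed the adjusted threshold, all 6 SRP genes lie at or below 0, and all 8 tested OST genes lie above 0.

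Summed levels of each complex are given next. The SRP receptor summed to 149, 133 and 139 TPM in knockdown against 119, 120 and 120 TPM in control, 17.3% higher by the means. KDEL receptors summed to 334, 331 and 324 TPM in knockdown against 304, 292 and 292 TPM in control. OST summed to 1408, 1361 and 1329 TPM in knockdown against 1269, 1243 and 1251 TPM in control. In these complexes every knockdown library lay above every control library, as it did for signal peptidase (7.92% higher) and TRAP (6.95% higher). SRP went the other way, with sums of 782, 776 and 773 TPM in knockdown against 818, 792 and 802 TPM in control, a difference of −3.38% with no overlap. That sum leaves out SRP9P1, a copy of SRP9 that was higher on average in knockdown. SRP9P1 averaged 96.2 TPM in knockdown and 72.5 TPM in control, at a length of 261 bases against 1480 for SRP9. The part of reads split between the 2 in the SRP sum was not tested. SEC61 with SEC62 and SEC63 overlapped, at 827, 788 and 768 TPM in knockdown against 815, 759 and 783 TPM in control. The sums are dominated by the most abundant subunits and are given with no test.

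**Figure D2:**
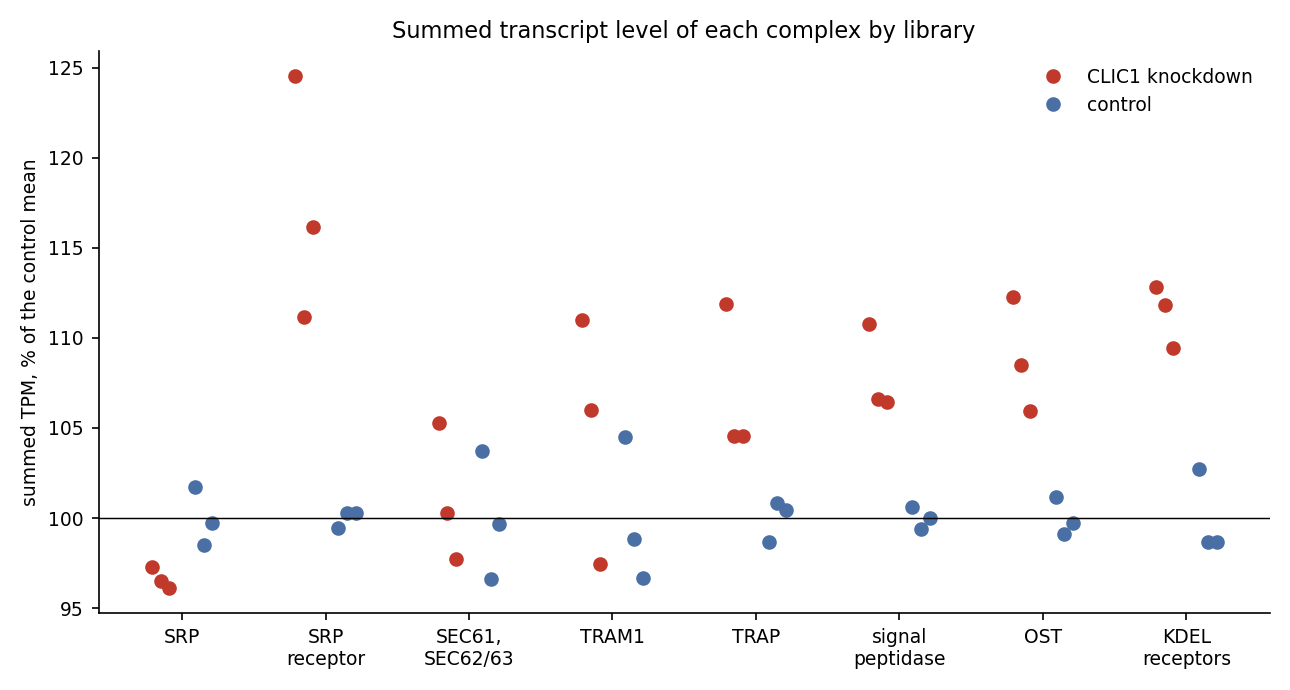
Summed TPM of each complex in each library, as a percentage of the control mean (vertical axis, which does not start at 0), with CLIC1 knockdown in red left of control in blue. Knockdown libraries lie below control for SRP, overlap it for SEC61 with SEC62/SEC63 and for TRAM1, and lie above it for the 5 other complexes.

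The particle that recognises signal peptides was close to its control level. Its 6 proteins had log2 fold changes from −0.17 to −0.01, a median of −0.06 (−0.03 with fitted GC, length and level trends taken out), and none passed (0 by limma, and 0 at an unadjusted p under 0.05). SRP54, the GTPase that holds the signal peptide, had 50.3, 52.6 and 50.8 TPM in knockdown against 55.2, 51.3 and 54.8 TPM in control. The groups overlapped, as they did for all 6 genes. SRP72, which with its partner SRP68 binds the RNA core of the particle and carries a GTGCTGA site shown above, had 70.9, 68.7 and 61.5 TPM in knockdown against 78.5, 69.7 and 79.2 TPM in control (log2 fold change −0.17, SE 0.0743, adjusted p = 0.32). Only 1 control library came down to the knockdown range there. SRP9 and SRP14, which pause the ribosome during delivery, averaged 237 ± 3.42 and 269 ± 4.65 TPM in knockdown and 249 ± 11.9 and 270 ± 6.29 TPM in control (SD, n = 3 each). SRP9 has a copy, SRP9P1, listed at a mean of 84.3 TPM, so reads may be split between them and the level of SRP9 is uncertain. SRP9P1 had 123, 80.6 and 84.7 TPM in knockdown against 101.5, 69.4 and 46.55 TPM in control. Its log2 fold change was 0.45 (adjusted p = 0.502), opposite in sign to that of SRP9, with overlap. SRP19, an assembly factor of the particle with the reversed TGACGTGG shown above, differed by less than its spread (log2 fold change −0.01), and SRP68 was at −0.05. The RNA core itself is encoded by RN7SL1 and RN7SL2, looked up after the protein values were seen. RN7SL1 had 742, 964 and 1257 TPM in knockdown against 1063, 964 and 1236 TPM in control, and RN7SL2 had 1311, 1726 and 1851 TPM against 1937, 1512 and 2060 TPM. Both overlapped widely, and the recovery of such short RNAs depends on a library preparation that the labels do not describe.

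Both subunits of the SRP receptor were higher on average without passing the test. SRPRA, the GTPase that docks with SRP54, had 92.1, 85.8 and 81.4 TPM in knockdown against 74.6, 70.7 and 74.1 TPM in control (log2 fold change 0.24, SE 0.0571, adjusted p = 0.102). The groups did not overlap, and the gene passed after trimmed-mean rescaling (adjusted p = 0.0439) and with fitted GC, length and level trends taken out (adjusted p = 0.0294). SRPRB, its membrane anchor, had 56.9, 47.4 and 57.7 TPM in knockdown against 44.3, 49.4 and 46.1 TPM in control (log2 fold change 0.20, adjusted p = 0.318). Knockdown replicate 2 lay within the control range. The log2 difference SRPRA minus SRPRB was 0.67 ± 0.177 in knockdown and 0.64 ± 0.119 in control, a difference smaller than the spread (exact permutation test, two-sided, p = 0.9). SRPRA shares exon sequence with FOXRED1 and FAM118B on the opposite strand, at means of 31.2 and 15.8 TPM, and reads could be mixed where strand was not used. Other members with such overlaps include SRP19 with REEP5 (73.6 TPM) and SSR4 with IDH3G (60.2 TPM). STT3A overlaps CHEK1 on the same strand (32.3 TPM).

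Within the channel the 3 SEC61 subunits had log2 fold changes of either sign, and 0 passed by limma. SEC61A1, which forms the pore, had 131, 122 and 119 TPM in knockdown against 141, 137 and 142 TPM in control (log2 fold change −0.18, SE 0.0466, adjusted p = 0.127). Its groups did not overlap, and it is the sole member wholly lower in knockdown. After fitted trends on GC content, length and level were taken out it passed as lower (log2 fold change −0.20, adjusted p = 0.0429). SEC61B, a small tail-anchored subunit, had 291, 256 and 272 TPM in knockdown against 255, 247 and 250 TPM in control (log2 fold change 0.12, adjusted p = 0.299), all knockdown libraries above control but by little in replicate 2. SEC61G, the other small subunit, averaged 314 ± 14.7 TPM in knockdown and 317 ± 17.3 TPM in control (SD, n = 3 each). SEC61A1 shares exon sequence with RUVBL1 on the opposite strand, which was at 117 ± 4.11 TPM in knockdown and 121 ± 2.78 TPM in control. SEC62, which helps short precursors enter after synthesis and also acts in removal of excess ER, was at 45.1 ± 2.08 and 41.1 ± 3.95 TPM in knockdown and control. SEC63, the J-domain partner that brings the chaperone HSPA5 to the channel, was at 38.5 ± 0.959 and 37.6 ± 1.79 TPM. TRAM1, a membrane protein beside the channel, was at 98.2 ± 6.48 and 93.7 ± 3.79 TPM. None of these 3 passed (adjusted p from 0.48 to 0.841).

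TRAP, which assists weaker signal peptides, had 3 of 4 subunits higher on average and 0 past the threshold by limma. At an unadjusted p under 0.05 2 were higher, against 7.85% of all tested genes. SSR3, its gamma subunit, had 137, 138 and 137 TPM in knockdown against 120, 121 and 114 TPM in control (log2 fold change 0.21, SE 0.0406, adjusted p = 0.0557). The knockdown libraries lay within 1 TPM of each other and above all controls, and the gene passed with a filter of 5 TPM (adjusted p = 0.0441) and after fitted trends on GC, length and level were taken out (adjusted p = 0.0325). SSR4, the delta subunit, had 356, 321 and 343 TPM in knockdown against 302, 310 and 312 TPM in control (log2 fold change 0.14, adjusted p = 0.182), again without overlap. SSR2, the beta subunit, overlapped, at 184 ± 7.26 TPM in knockdown and 174 ± 8.94 TPM in control. SSR1, the alpha subunit, had 137, 130 and 108 TPM in knockdown against 139, 136 and 131 TPM in control (log2 fold change −0.11, adjusted p = 0.575). Knockdown replicate 3 alone was far below the rest there, and without it the log2 fold change was −0.02. SSR3 and SSR4 carry the reversed TGACGTGG, though not at every annotated start, and were among the higher members. The other carriers, SEC62, KDELR3 and SRP19, had log2 fold changes of 0.13, 0.04 and −0.01. Of the 3 genes that rose, DDOST and OSTC had a window without the motif and KDELR2 was not searched.

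Signal peptidase has a pair of alternative catalytic subunits, and the less abundant of them was the higher one in knockdown. SEC11C had 98.9, 86.7 and 105 TPM in knockdown against 71.3, 75.9 and 74.0 TPM in control (log2 fold change 0.39, SE 0.0742, adjusted p = 0.056). This was the largest fold change of any tested member, with no overlap, just short of the threshold, and the gene passed with a filter of 5 TPM (adjusted p = 0.0357) and after fitted trends on GC, length and level were taken out (adjusted p = 0.0401). SEC11A, its paralogue, had 148, 156 and 148 TPM in knockdown against 149, 143 and 140 TPM in control (log2 fold change 0.07, adjusted p = 0.503), with overlap. SEC11C therefore made up 40%, 35.8% and 41.6% of the summed catalytic transcripts in knockdown against 32.4%, 34.7% and 34.6% in control. The log2 difference SEC11A minus SEC11C differed by −0.32 (3 of 3 knockdown libraries below all controls). The exact permutation test gave p = 0.1 (two-sided), the lowest value possible with 3 libraries a group, and an adjusted p of 0.2 over the 6 paralogue or partner ratios compared. The accessory subunits SPCS1 and SPCS2 were at 135 ± 4.16 and 75.3 ± 3.77 TPM in knockdown and 136 ± 3.57 and 75.3 ± 3.34 TPM in control. SPCS3, which the enzyme needs for activity, had 71.5, 70.2 and 48.9 TPM in knockdown against 55.4, 48.6 and 57.2 TPM in control. Its knockdown libraries disagreed, with replicate 3 in the control range, and its SD on the log2 scale was 0.304 in knockdown and 0.123 in control, against medians over the tested members of 0.0552 and 0.0517. The log2 fold change was 0.22 (adjusted p = 0.529) and 0.40 without knockdown replicate 3 (adjusted p = 0.0737).

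**Figure D3:**
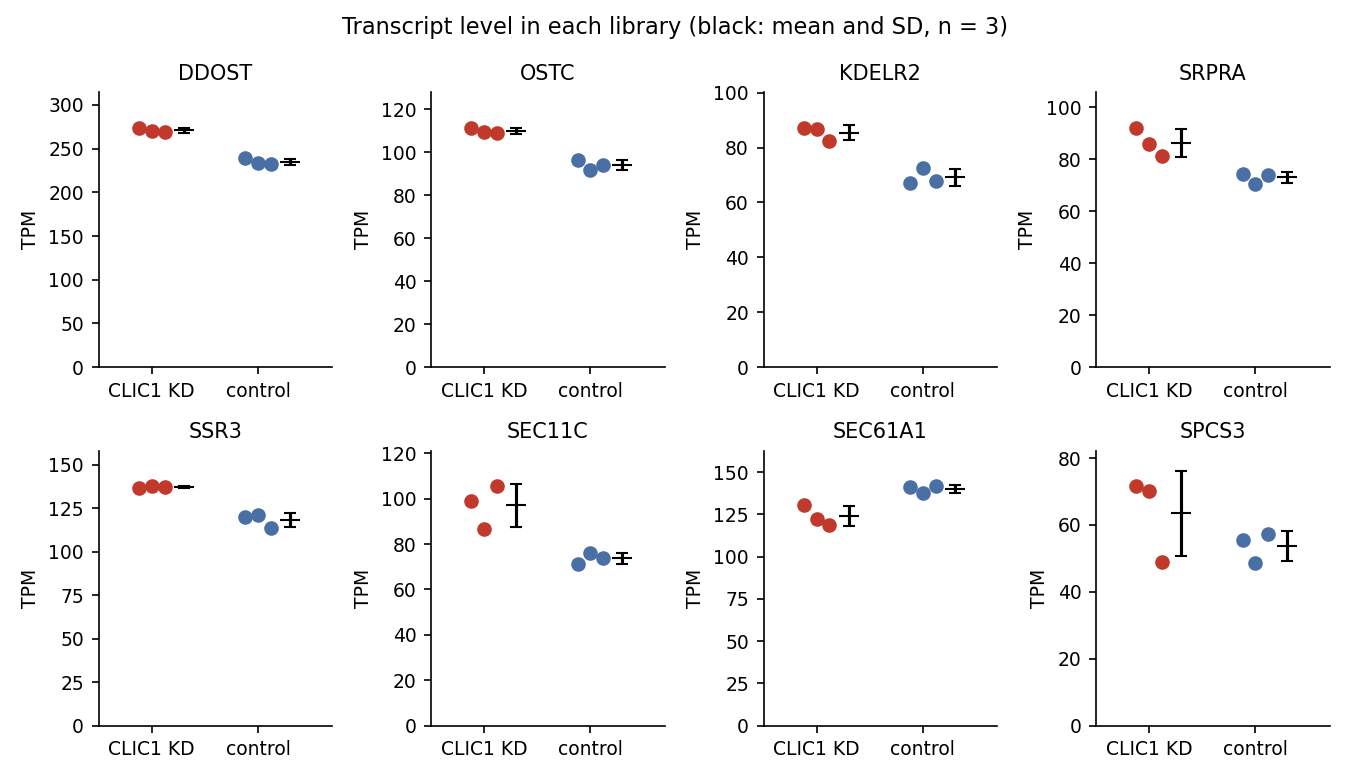
TPM (vertical axes, from 0) in each library for 8 genes, CLIC1 knockdown in red left of control in blue, with the mean and SD in black (n = 3). DDOST, OSTC, KDELR2, SRPRA, SSR3 and SEC11C have every knockdown library above every control, SEC61A1 has every one below, and SPCS3 has knockdown replicate 3 at 48.9 TPM within the control range.

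OST had 2 of the 3 genes that rose. All 8 tested subunits had positive log2 fold changes, from 0.02 to 0.22 with a median of 0.11, 2 rose, and 4 lay wholly above control, against 48.7% positive, 0.962% called higher and 11.1% wholly above among all tested genes. The median was 0.17 without knockdown replicate 3. DDOST, a shared non-catalytic subunit, had 274, 270 and 269 TPM in knockdown against 239, 233 and 233 TPM in control (log2 fold change 0.20, SE 0.0315, adjusted p = 0.0287). All 3 knockdown libraries stood above all controls, at 115% of the control mean. OSTC, also called DC2, ties the STT3A form of the enzyme to the channel and had 111, 110 and 109 TPM in knockdown against 96.3, 91.5 and 94.1 TPM in control (log2 fold change 0.22, SE 0.0403, adjusted p = 0.0463). Its groups were likewise apart, at 117% of control, and the 6 named OSTC pseudogenes in the table were each under 1 TPM on average. The ribophorins RPN1 and RPN2, large shared subunits, had log2 fold changes of 0.11 and 0.14 with adjusted p of 0.168 and 0.13. RPN1 had 298, 284 and 285 TPM in knockdown against 267, 269 and 266 TPM in control, and RPN2 had 267, 254 and 248 TPM against 233, 232 and 231 TPM. Neither gene overlapped between groups. DAD1, a small subunit named for defence against apoptotic death, was at 258 ± 6.41 and 251 ± 8.09 TPM in knockdown and control.

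The catalytic subunits of OST did not pass the test. STT3A, the enzyme that acts as the chain enters, had 76.7, 70.9 and 70.1 TPM in knockdown against 68.8, 70.1 and 75.1 TPM in control (log2 fold change 0.02, adjusted p = 0.883). STT3B, which acts on skipped sites, had 90.2, 90.0 and 73.0 TPM in knockdown against 80.2, 75.4 and 83.9 TPM in control (log2 fold change 0.07, adjusted p = 0.743), again with knockdown replicate 3 below the others. STT3A made up 46.3% ± 2.48 of the pair in knockdown and 47.2% ± 1.01 in control (SD, n = 3 each; exact permutation test of the log2 difference, two-sided, p = 0.6, adjusted p = 0.84). The STT3B form needs a thioredoxin-like subunit, MAGT1 or TUSC3. MAGT1 was at 25.2 ± 1.65 TPM in knockdown and 23.2 ± 2.41 TPM in control (adjusted p = 0.584), the lowest level of any tested member. TUSC3 was listed at 0, 0.68 and 0.11 TPM in knockdown and at 0.04, 0 and 0 TPM in control, so MAGT1 was at least 97.4% of the pair in every library. On the side of the STT3A form, KRTCAP2, an OST subunit outside the 35 genes, rose as OSTC did, with 169, 166 and 158 TPM in knockdown against 136, 137 and 141 TPM in control (log2 fold change 0.26, SE 0.0416, adjusted p = 0.0338). The list of 5 further subunits that holds KRTCAP2 had a median log2 fold change of −0.04. Whether subunits particular to the STT3A form differed from those of the STT3B form was not tested.

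Among the KDEL receptors only KDELR2 rose. It had 87.2, 86.9 and 82.2 TPM in knockdown against 67.0, 72.7 and 68.0 TPM in control (log2 fold change 0.30, SE 0.0513, adjusted p = 0.039), 123% of control and without overlap, with GTGCTGA 2 times in its 3′ UTR as shown above. KDELR2 shares exon sequence with DAGLB on the same strand, at a mean of 13.9 TPM, so reads could be mixed. KDELR3 shares exon sequence with DDX17 on the opposite strand, at a mean of 138 TPM. KDELR1, the most abundant of the 3, had 207, 205 and 203 TPM in knockdown against 194, 184 and 187 TPM in control (log2 fold change 0.12, adjusted p = 0.167), also without overlap. KDELR3 had 40.7, 39.2 and 39.1 TPM in knockdown against 42.6, 35.4 and 37.8 TPM in control (log2 fold change 0.04, adjusted p = 0.831), with overlap. KDELR2 made up 26.1%, 26.2% and 25.4% of the receptor transcripts in knockdown against 22.1%, 24.9% and 23.2% in control. The log2 differences KDELR1 minus KDELR2 and KDELR3 minus KDELR2 moved by −0.18 and −0.26, each with 3 of 3 knockdown libraries below all controls (exact permutation test, two-sided, p = 0.1 each, adjusted p = 0.2), so unequal change among the receptors was not shown beyond the smallest p the design allows.

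**Figure D4:**
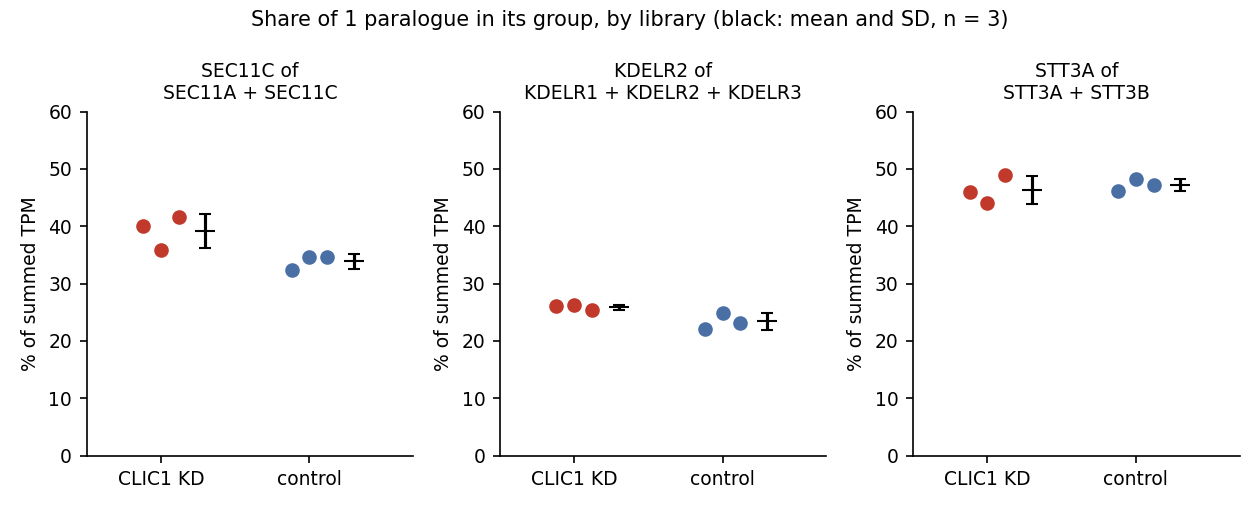
Share of SEC11C, KDELR2 and STT3A in the summed TPM of their paralogue group (vertical axes, from 0%), CLIC1 knockdown in red left of control in blue, with the mean and SD in black (n = 3). SEC11C averages 39.1% in knockdown and 33.9% in control, KDELR2 25.9% and 23.4%, and the STT3A shares overlap.

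Neighbouring steps of the pathway were read from 10 lists of other genes, which name 108 genes found in the table. Of the ER membrane protein complex, which inserts tail-anchored and multipass proteins, 2 of 10 genes rose and 0 fell, against 0.962% and 0.778% of all tested genes. At an unadjusted p under 0.05 3 were higher and 1 lower, against 7.85% and 7.76% of all tested genes. Of the 10 log2 fold changes 4 were negative, the lowest −0.24. The median log2 fold change was 0.05, and it was 0.08 without knockdown replicate 2 and 0.12 without control replicate 3. EMC6 had 110, 103 and 112 TPM in knockdown against 80.0, 81.1 and 81.0 TPM in control (log2 fold change 0.42, SE 0.0459, adjusted p = 0.0114), a larger log2 fold change than that of any tested member. EMC7 had 85.0, 80.3 and 84.0 TPM in knockdown against 66.1, 66.4 and 68.2 TPM in control (log2 fold change 0.31, adjusted p = 0.0235). In the multipass translocon 0 of 8 genes passed by limma, and 3 were higher and 0 lower at an unadjusted p under 0.05. TMCO1 was lowest in p (69.0 ± 2.99 and 59.6 ± 2.84 TPM in knockdown and control, adjusted p = 0.134). The tail-anchor insertion route had 0 of 7 past the threshold by limma. At an unadjusted p under 0.05 1 was higher and 1 lower, with GET4 lowest in p (adjusted p = 0.219). Over all tested genes 7.85% were higher and 7.76% lower at that unadjusted threshold. Of 5 further translocon and OST subunits KRTCAP2 alone rose and 0 fell, against 0.962% and 0.778% of all tested genes. Of their log2 fold changes 2 were positive and 3 negative, with a median of −0.04.

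The glycan that OST transfers is built on dolichol. Of 24 genes that assemble the dolichol-linked glycan 1 fell and 0 rose, against 0.778% and 0.962% of all tested genes. The median log2 fold change of the 24 was 0.04. The one that fell was DPM2, a subunit of dolichol-phosphate mannose synthase, with 30.2 ± 1.14 TPM in knockdown and 39.9 ± 1.94 TPM in control (SD, n = 3 each, log2 fold change −0.39, SE 0.0603, adjusted p = 0.0287). In the trimming and lectin cycle that follows glycan transfer 2 of 11 genes rose, against 0.962% of all tested genes, with a median of 0.14 that was 0.03 without knockdown replicate 1. They were PRKCSH, the regulatory subunit of glucosidase II (334, 330 and 334 TPM in knockdown against 286, 281 and 291 TPM in control, log2 fold change 0.22, adjusted p = 0.0228), and the lectin chaperone CALR. Of the signal peptide peptidase family, which clears cut signal peptides, 0 of 4 passed by limma. At an unadjusted p under 0.05 2 were higher and 1 lower, against 7.85% and 7.76% of all tested genes. SPPL2B was lowest in p (log2 fold change 0.25, adjusted p = 0.103). Log2 fold changes in the family ran from −0.40 to 0.25, with 3 positive and 1 negative.

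Luminal ER residents, most of which end in a retrieval signal that KDEL receptors read, included several that rose. Of 19 tested, 7 rose and 0 fell, against 0.962% and 0.778% of all tested genes, and the median log2 fold change was 0.26. Their rise was already known from these libraries when the list was made. CALR, P4HB, CRELD2 and PDIA4 had log2 fold changes of 0.39, 0.35, 0.58 and 0.30 (adjusted p from 0.00329 to 0.016), each without overlap between groups. The COPI coat that carries KDEL receptors back to the ER had 0 of 11 past the threshold by limma. At an unadjusted p under 0.05 1 was higher and 1 lower, against 7.85% and 7.76% of all tested genes. The lower one, ARF1, a GTPase that recruits the coat, had 275, 257 and 265 TPM in knockdown against 289.6, 299.7 and 293 TPM in control (adjusted p = 0.117). Among 7 sensors and transcription factors of the unfolded protein response ATF6B alone rose (51.7, 56.9 and 49.2 TPM in knockdown against 40.7, 40.4 and 36.8 TPM in control, log2 fold change 0.41, adjusted p = 0.0409). By limma 0 fell, and the shares over all tested genes were 0.962% higher and 0.778% lower. At an unadjusted p under 0.05 2 of the 7 were higher and 1 was lower, against 7.85% and 7.76% of all tested genes. Knockdown lay wholly above control in 2 and wholly below in 2, against 11.1% and 11.2% of all tested genes. The median log2 fold change of the 7 was 0.01.

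**Figure D5:**
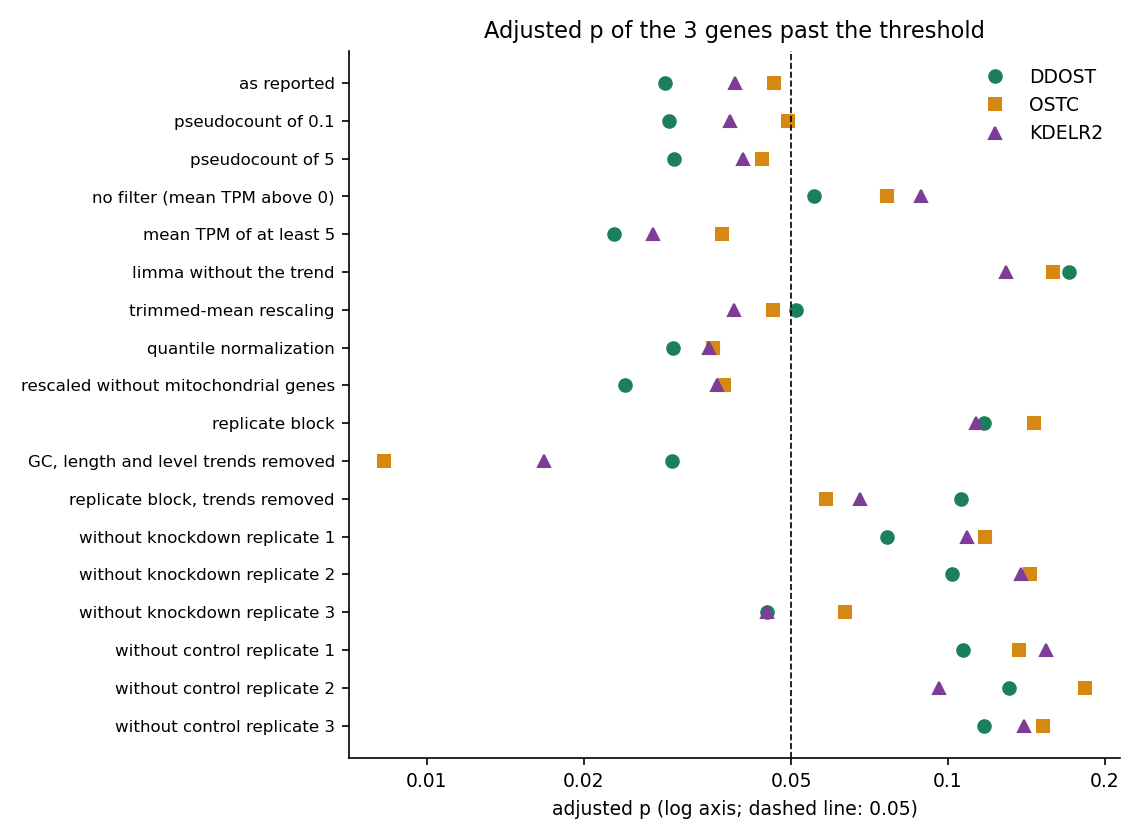
Adjusted p (horizontal log axis, dashed line at 0.05) of DDOST, OSTC and KDELR2 as reported and under 17 other settings. All 3 pass under each pseudocount and scaling except DDOST with trimmed-mean rescaling, and none passes without the level filter, without the mean-variance trend, with a replicate block or when any 1 control library is left out.

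By position, 7 of the 35 genes lie on chromosome 3, the most of any chromosome, among them SEC61A1 (128051641 to 128071683, plus strand, GRCh38) and RPN1 (128619970 to 128681075, minus strand), whose log2 fold changes were −0.18 and 0.11. The genes past the threshold lie on different chromosomes: DDOST on chromosome 1 (20651767 to 20661544, minus strand), OSTC on chromosome 4 (108650584 to 108667820, plus strand) and KDELR2 on chromosome 7 (6445953 to 6484242, minus strand).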

How the data were processed

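The authors deposited a gene table of TPM for 6 libraries, and fastp, HISAT, RSEM and edgeR with the build GRCh38 were used, per the submitters' processing notes. For versions, annotation, strandedness and RNA selection: not given in the sources used here. Each library summed to between 999988 and 999992 TPM, so depth is unknown and no count model was fitted. Since totals are fixed, abundant genes that rise lower the TPM of the rest. Column names and replicate numbers tied columns to samples, and the authors' group means, within 3.33e-05 TPM of the column means, were not used.

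Genes with a mean of at least 1 TPM (14135) were tested on log2(TPM + 1), which understates the change of low genes, with limma 3.58.1 and a mean-variance trend (R 4.3.3), knockdown over control, no covariate, Benjamini-Hochberg adjustment over all tested genes and a threshold of 0.05. Adjusted p-values of genes come from this test, or from its named alternative where the sentence gives one, and SE is that of the log2 fold change. The procedure was tested on simulated data first. Paralogue ratios used exact permutation (SciPy 1.17.1). Exon overlaps, 3′ UTRs and positions came from GENCODE 29 on GRCh38, promoters from RefSeq. Named genes were the 35 members, CLIC1, and from each list up to 4 called genes or that with the smallest p. RN7SL1, RN7SL2 and the overlapping genes were added after values were seen. Members and lists were chosen with earlier results of these data known. Of 112 list names 109 matched the table, and 3 were older names of listed genes. Alternatives covered pseudocount, filter, trend, scaling, a replicate block, GC, length and level trends, and leaving out each library.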

Additional observations from a re-analysis of the deposited data

How the results depend on the processing

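The count of members called higher changed with the setting and is given beside the count over all genes, 3 and 136 as reported. It was 0 without the level filter (30 of 29306 genes), 0 without limma's mean-variance trend (0 of 14135 genes called in either direction, 2040 at an unadjusted p under 0.05), 5 with a filter of 5 TPM (174 of 10351) and 6, with SEC61A1 as 1 lower, once GC, length and level trends were taken out (254 of 13861). With the replicate block it was 0 (21 of 14135 genes), also with those trends taken out (46 of 13861), shares too low to say anything of 34 members. Same-numbered libraries deviated with correlations of 0.0396, −0.046 and −0.0132, so no deviation shared by them was seen. These values cannot tell whether same-numbered libraries were handled as pairs. Leaving out 1 library gave 0 to 2 calls, with fewer samples in each fit. The 2 calls came without knockdown replicate 3, where the count over all genes was 154, so the counts did not always move together. CLIC1 was −0.54 without the trend (adjusted p = 0.073) and passed in the 17 other settings, the reported one included. DDOST, OSTC and KDELR2 stayed positive in all 18 settings and passed in 8, 8 and 9, with adjusted p of 0.0229 to 0.171, 0.00829 to 0.183 and 0.0168 to 0.154. The cause of these changes was not tested.

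Signs turned in members near 0. SPCS2 was 0.00 after trimmed-mean rescaling and without mitochondrially encoded genes, and SRP14 was 0.01 under quantile normalization. With GC, length and level trends taken out, with and without the block, SRP19 was 0.03 and SEC61G and SPCS2 were 0.05. Leaving out 1 library gave −0.02 to 0.01 for SRP14, −0.04 to 0.00 for SRP19, −0.04 to 0.03 for SEC61G, −0.01 to 0.06 for SEC63, −0.04 to 0.01 for SPCS1, −0.04 to 0.04 for SPCS2, −0.02 to 0.06 for STT3A and −0.02 to 0.11 for KDELR3. It gave −0.13 to 0.02 for STT3A minus STT3B, −0.35 to 0.04 for MAGT1 minus TUSC3 (−1.06 with a pseudocount of 0.1 and 0.03 with one of 5) and −0.05 to 0.13 for SRPRA minus SRPRB. Depth is unknown, so the precision of low levels such as that of TUSC3 cannot be given.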
